A study of Rattus norvegicus with 6 samples.

Results

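Carbonic anhydrases were followed on 6 arrays of rat glomerular RNA, 3 of PEC-enriched and 3 of PEC-deprived isolates. The 8 genes described are Car2, Car3, Car4, Car5b, Car8, Car9, Car12 and Car14, of 14506 genes measured. They were taken by symbol through the Entrez ID, and where several probesets carried only that symbol, the one with the highest mean over the 6 arrays stood for the gene. Each of the 8 had 1 such probeset. Both groups came from the kidney cortex of male Sprague-Dawley rats, of an age not stated, without treatment or culture. Each preparation gave 1 array of whole-transcript type (Rat GeneChip 1.0ST). PEC-enriched isolates are capsulated glomeruli trapped on a 90 µm sieve, which keep Bowman's capsule and the parietal epithelial cells (PECs) that line it. PEC-deprived isolates are decapsulated glomeruli collected on a 75 µm sieve. By the study's counts, a substantial part of the glomeruli in PEC-enriched preparations was decapsulated, and few in PEC-deprived preparations were capsulated. Tubule fragments were counted in all PEC-enriched and some PEC-deprived preparations, so neither group is a pure cell type. Isolations were done from individual rats, with n = 3 animals given in the methods. Whether a rat gave both fractions is not stated.

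Carbonic anhydrases interconvert carbon dioxide and water with bicarbonate and a proton, using a zinc ion held in the active site. In the nephron they serve bicarbonate reabsorption in the proximal tubule and acid or base secretion in the intercalated cells of the collecting duct. The family divides by where the enzyme works. Car2 and Car3 lie in the cytosol and Car5b in mitochondria, Car4 is held on the outer cell surface by a lipid anchor, and Car9, Car12 and Car14 span the membrane with their catalytic domain outside the cell. Car8 belongs to the family by sequence but lacks catalytic activity, and is known as a protein that binds an inositol trisphosphate receptor. Car9 is known as a gene induced by hypoxia.

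The 8 genes did not move as a family. Car12, Car2 and Car4 had higher values on every PEC-enriched array than on any PEC-deprived array, Car8 had lower ones, and in the remaining 4 genes the groups overlapped. The mean was higher in PEC-enriched isolates for 4 of the 8 and lower for 4, against 44.8% higher and 55.2% lower over all genes. The log2 fold changes, PEC-enriched minus PEC-deprived, ran from -0.60 to 1.35 with a median of 0.15, beside a median of -0.02 over all 14506 genes. The median of the 8 was 0.0862 without PEC-deprived replicate 2, 0.0948 without PEC-enriched replicate 2 and 0.237 without PEC-enriched replicate 3. With limma, 0 of the 8 passed at an adjusted p under 0.01, which the methods set as limit, and 0% of all genes and of all probesets did. At an unadjusted p under 0.05 limma had 3 of the 8 higher and 1 lower, where 7.96% of all genes were higher and 5.65% lower. A second, regularised test, which borrows variance from probesets of like level, called 2 of the 8 higher and 0 lower at an adjusted p under 0.01, beside 1.41% of all genes higher and 0.234% lower and 1.14% of all probesets in either direction. On simulated data with known changes this regularised test made many more false calls than its threshold allows, which limma did not. The simulation took each probeset's spread from its own arrays and let probesets vary independently. It therefore cannot settle the error rate on the real arrays. Adjusted p-values of the regularised test may be too small, so its calls are given as a description. Groups without overlap occurred in 9.68% of all genes in the higher and 9% in the lower direction. Of the 8 genes 3 were of the higher kind and 1 of the lower. Without PEC-deprived replicate 1 the higher kind had 4, with Car14 added, against 15.1% of all genes. The lower kind had 2 without PEC-enriched replicate 1, with Car5b added (17.7% of all genes), and 3 without PEC-enriched replicate 3, with Car3 and Car9 added (15.7%). Car2 and Car12 are in the study's own list of differing genes, which was chosen on these arrays, so their direction is not independent evidence.

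**Figure D1:**
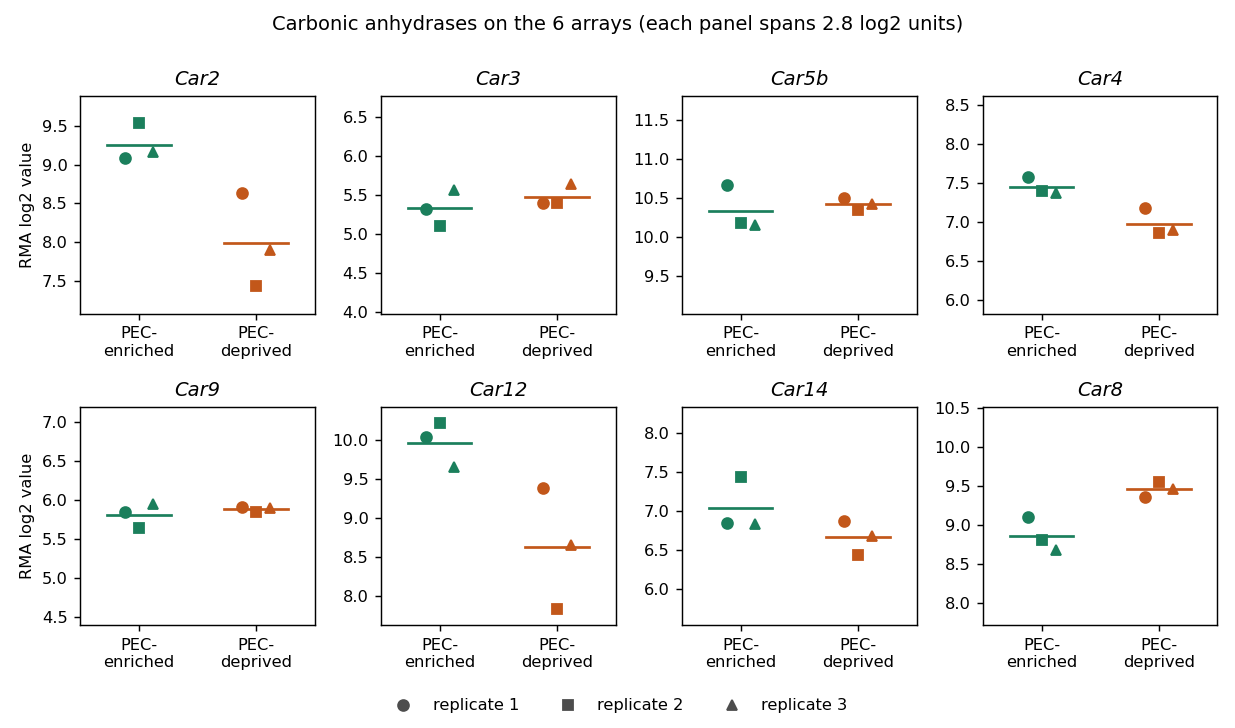
RMA log2 values (y axis) of the 8 carbonic anhydrases on each array, by isolate (x axis); each point is 1 array, its shape the replicate number, and each line the mean of 3 arrays. Car2, Car12 and Car4 lie higher and Car8 lower on all 3 PEC-enriched arrays, and in Car2 and Car12 PEC-deprived replicate 1 lies nearest to the PEC-enriched arrays.

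Of the enzymes inside the cell, Car2 differed most between the isolates. Car2 is the widespread cytosolic enzyme, with high activity, and its loss causes renal tubular acidosis with osteopetrosis in humans. Its log2 values were 9.08, 9.53 and 9.16 in PEC-enriched replicates 1, 2 and 3 and 8.64, 7.44 and 7.90 in PEC-deprived replicates 1, 2 and 3. The PEC-enriched arrays lay close together and all above the PEC-deprived arrays, which spread over 1.20 log2 units, against 0.44 in the PEC-enriched group. The means were 9.26 ± 0.238 and 7.99 ± 0.605 (SD, n = 3 arrays each), which differ on the log2 scale by 1.26 or 2.40-fold (standard error, SE, 0.276, 95% interval 0.63 to 1.90, adjusted p = 0.19 in limma). By the regularised test the adjusted p was 0.0011. Over single arrays left out the difference ran from 0.99 to 1.59. The fold change was the 54th highest of the 14506 genes. Red blood cells also hold much Car2. Of 7 measured erythroid markers, means were higher for 4 and lower for 3 (median log2 fold change 0.11), and their mean relative to all arrays overlapped between the groups. The beta globin gene Hbb overlapped as well, at 12.16 ± 0.121 against 12.04 ± 0.303 (SD, n = 3 arrays each). The part of blood in the Car2 value was not tested.

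Car3 and Car5b did not follow Car2. Car3, a cytosolic enzyme of low activity known from muscle and fat, is the next coding gene after Car2 on the RefSeq GRCr8 assembly. It had log2 values of 5.32, 5.11 and 5.57 in PEC-enriched and 5.40, 5.39 and 5.65 in PEC-deprived replicates 1 to 3. These groups overlapped, with a log2 fold change of -0.15 (SE 0.137, 95% interval -0.46 to 0.17, adjusted p = 0.815 in limma). The neighbouring Car1 and Car13, the red cell and a widespread cytosolic form, follow Car3 in the same run of genes and had log2 fold changes of 0.15 and 0.24, again with overlap. In this run of 4 adjacent genes, Car2 was the one without overlap between the isolates. The probesets of Car3, Car1 and Car13 lay below the median level, at 26.9%, 34.8% and 38.8% of probesets, against 79.6% for Car2. Whether Car3, Car1 and Car13 gave signal over background is unknown, so a lack of expression cannot be told from a lack of difference. The median difference was -0.08 over 8 fat markers and -0.05 over 8 muscle markers. Among the fat markers Lpl, which endothelium also displays, stood lowest at -0.61 with overlapping groups. Car5b, a mitochondrial enzyme that supplies bicarbonate to carboxylases, had 10.67, 10.17 and 10.15 in PEC-enriched and 10.50, 10.34 and 10.42 in PEC-deprived replicates 1 to 3. PEC-enriched replicate 1 was the highest of the 6 arrays and the other PEC-enriched arrays the lowest, so the groups overlapped (log2 fold change -0.09, standard error 0.147, 95% interval -0.43 to 0.25, adjusted p = 0.915 in limma). Without PEC-enriched replicate 1 the Car5b difference was -0.26, and without PEC-enriched replicate 2 it was -0.01.

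Among the enzymes that face the outside of the cell, Car12 had the highest fold change of the 8. Car12 is a transmembrane form known from the basolateral membrane of distal nephron epithelium. Its log2 values were 10.04, 10.22 and 9.65 in PEC-enriched and 9.38, 7.84 and 8.65 in PEC-deprived replicates 1 to 3. No PEC-deprived array reached the PEC-enriched ones, with a gap of 0.27 between PEC-enriched replicate 3 and PEC-deprived replicate 1, while the PEC-deprived arrays spread over 1.55 log2 units. The means were 9.97 ± 0.289 and 8.62 ± 0.774 (SD, n = 3 arrays each), which differ on the log2 scale by 1.35 or 2.54-fold (SE 0.345, 95% interval 0.55 to 2.14, adjusted p = 0.234 in limma). The regularised test gave an adjusted p of 0.00187, and the fold change was the 47th highest of all genes. Leaving out PEC-deprived replicate 1 raised the Car12 difference to 1.73 and leaving out PEC-deprived replicate 2 lowered it to 0.95.

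Car4 differed less but with little spread. This lipid-anchored enzyme sits on the brush border of the proximal tubule and is also known from capillary endothelium. It had log2 values of 7.58, 7.40 and 7.37 in PEC-enriched and 7.18, 6.87 and 6.90 in PEC-deprived replicates 1 to 3. The groups were apart by 0.19 at their nearest arrays. The means were 7.45 ± 0.114 and 6.98 ± 0.171 (SD, n = 3 arrays each), which differ on the log2 scale by 0.47 or 1.39-fold (SE 0.116, 95% interval 0.20 to 0.74, adjusted p = 0.227 in limma). By the regularised test Car4 did not pass, with an adjusted p of 0.0883.

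Car14 and Car9, the other transmembrane forms, overlapped between the isolates. Car14, known from the proximal tubule and the thin descending limb, had 6.84, 7.43 and 6.83 in PEC-enriched and 6.87, 6.44 and 6.68 in PEC-deprived replicates 1 to 3. PEC-enriched replicate 2 stood above the other arrays, which spread over 0.43 log2 units. The log2 fold change of 0.37 (SE 0.183, 95% interval -0.05 to 0.80, adjusted p = 0.555 in limma) was 0.17 without that array. Car9 had 5.85, 5.64 and 5.95 in PEC-enriched and 5.91, 5.85 and 5.90 in PEC-deprived replicates 1 to 3, a log2 fold change of -0.07 (SE 0.105, 95% interval -0.31 to 0.17, adjusted p = 0.899 in limma). No difference in Car9 was visible beyond its spread, and its sign turned to 0.01 without PEC-enriched replicate 2. Car9 and Car3 were the 2 of the 8 genes whose probeset lay below the median level of all probesets, at 34.6% and 26.9% of probesets. Signal over background is unknown here, so a lack of expression cannot be told from a lack of difference. Of 12 measured genes induced by hypoxia, means were higher for 9 and lower for 3 (median 0.09), and 0 passed in limma. Ndrg1 had the largest difference of them, at 1.04 (SE 0.292, adjusted p = 0.279 in limma), and was the 1 gene of the list that the regularised test called (adjusted p = 0.00469). Ndrg1 is in the study's list as well. Of the 12 genes 5 had no overlap, all of them higher, against 9.68% of all genes. Pgk1 had 0.51 (SE 0.117, adjusted p = 0.207 in limma) and Bnip3 0.46 (SE 0.131, adjusted p = 0.283 in limma), and P4ha1 stood at 0.28.

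Promoter sequences were looked at for these outward-facing enzymes, in the 250 bases before the RefSeq start of each gene on the GRCr8 build. RefSeq promoters were given for 5 of the 8 genes, Car4, Car5b, Car9, Car12 and Car14. Those of Car4 and Car12 are printed because both genes had no overlap between the isolates, and that of Car9 because Car9 is known for its response to hypoxia. On both strands 4 sets of letters were searched. The first was ACGTG, the core that hypoxia-inducible factors bind, which also lies within the E-box motif. The hepatocyte nuclear factors of the proximal tubule were represented by GTTAAT as part of an HNF1 site and by CAAAGT as part of an HNF4 site. The last was TGTTTAC for forkhead factors. Capitals mark any of these.
Car4, chr10:70325108-70325357, plus strand: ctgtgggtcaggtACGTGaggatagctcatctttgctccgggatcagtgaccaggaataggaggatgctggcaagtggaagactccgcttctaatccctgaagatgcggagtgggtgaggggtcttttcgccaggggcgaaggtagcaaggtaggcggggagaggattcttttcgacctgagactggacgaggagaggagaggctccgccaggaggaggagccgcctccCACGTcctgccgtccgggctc
Car12, chr8:76169565-76169814, plus strand: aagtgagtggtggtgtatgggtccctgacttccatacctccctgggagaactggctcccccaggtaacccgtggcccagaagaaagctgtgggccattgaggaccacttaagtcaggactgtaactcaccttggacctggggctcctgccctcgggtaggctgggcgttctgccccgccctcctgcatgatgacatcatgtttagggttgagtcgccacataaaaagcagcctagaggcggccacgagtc
Car9, chr5:62558774-62559023, plus strand: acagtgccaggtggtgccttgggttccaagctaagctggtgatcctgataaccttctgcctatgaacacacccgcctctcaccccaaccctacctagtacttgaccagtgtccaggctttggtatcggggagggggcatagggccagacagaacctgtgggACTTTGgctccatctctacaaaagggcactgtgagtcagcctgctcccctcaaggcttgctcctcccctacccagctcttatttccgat
The Car4 window holds ACGTG on the plus strand beginning 237 bases and on the minus strand (CACGT) beginning 21 bases before the start. Of 33469 promoter windows of this length 16.6% hold these letters on either strand. The window of Car14, whose groups overlapped, also holds CACGT, beginning 54 bases before its start. The Car9 window holds ACGTG on neither strand. It holds CAAAGT on the minus strand (ACTTTG) beginning 89 bases before the start, as do 12.9% of windows on either strand. The Car12 window holds none of the 4 sets of letters, of which GTTAAT occurs in 6.45% and TGTTTAC in 3.21% of windows. These are matches of letters and not sites shown to be bound.

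Car8 was the 1 gene of the 8 whose arrays lay apart in the other direction. Its log2 values were 9.10, 8.80 and 8.68 in PEC-enriched and 9.36, 9.55 and 9.46 in PEC-deprived replicates 1 to 3. The PEC-deprived arrays lay within 0.19 of each other and above every PEC-enriched array, with a gap of 0.26. The means were 8.86 ± 0.217 and 9.46 ± 0.0958 (SD, n = 3 arrays each), which differ on the log2 scale by -0.60, or 1.51-fold lower in PEC-enriched isolates (SE 0.126, 95% interval -0.89 to -0.31, adjusted p = 0.182 in limma). This was the 85th lowest fold change of the 14506 genes, and over single arrays left out it ran from -0.72 to -0.51. By the regularised test Car8 came just short of the threshold, with an adjusted p of 0.0108. Of the inositol trisphosphate receptors 0 of 3 passed in limma and all overlapped, with log2 fold changes of -0.01 for Itpr1, which Car8 is known to bind, -0.04 for Itpr2 and -0.34 for Itpr3. Endothelial markers had lower means in PEC-enriched isolates as well. This held for all 10 markers (median -0.49), where 55.2% of all genes had a lower mean. Of the 10 markers 6 had no overlap, against 9% of all genes in the lower direction. Ehd3 among them is in the study's list chosen on these arrays. The mean of the endothelial markers relative to all arrays ran from -0.43 to 0.10 in PEC-enriched and from 0.18 to 0.27 in PEC-deprived isolates. Leukocyte markers also had lower means, 8 of 8 (median -0.43), each with overlap. Podocyte markers were divided, with 4 higher and 4 lower means of 8 and a median of 0.02. The part of endothelium and leukocytes in the Car8 value was not tested.

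Family members other than the 8 were also measured. They are Car1, Car5a, Car6, Car7, Car11, Car13 and Car15, and the receptor phosphatases Ptprg and Ptprz1, which carry a carbonic anhydrase-like domain outside the cell. In limma 0 of these 9 passed an adjusted p under 0.01, while means were higher for 7 and lower for 2 (median 0.24). Car15, a lipid-anchored form, had 7.69, 7.10 and 7.59 in PEC-enriched and 6.76, 5.96 and 6.36 in PEC-deprived replicates 1 to 3. The groups did not overlap, with Car15 higher by 1.10 log2 units or 2.14-fold in mean (SE 0.222, adjusted p = 0.17 in limma, regularised test adjusted p = 0.00159). Car15 is in the study's list too, and stood with Car12 and Car2 as the 3 of 15 numbered carbonic anhydrases above 1 on the log2 scale, where 0.965% of all genes were, and 0.0345% lay below -1. Car6, a secreted form known from saliva, stood at 0.36 (SE 0.089, adjusted p = 0.225 in limma), without overlap. For Ptprg the difference was -0.55 (SE 0.177, adjusted p = 0.327 in limma) and for Ptprz1 -0.49 (SE 0.268, adjusted p = 0.626 in limma). Ptprg had 9.64 in PEC-enriched replicate 1, below the lowest PEC-deprived array by 0.0154, and 9.05 and 8.95 in the other PEC-enriched arrays.

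**Figure D2:**
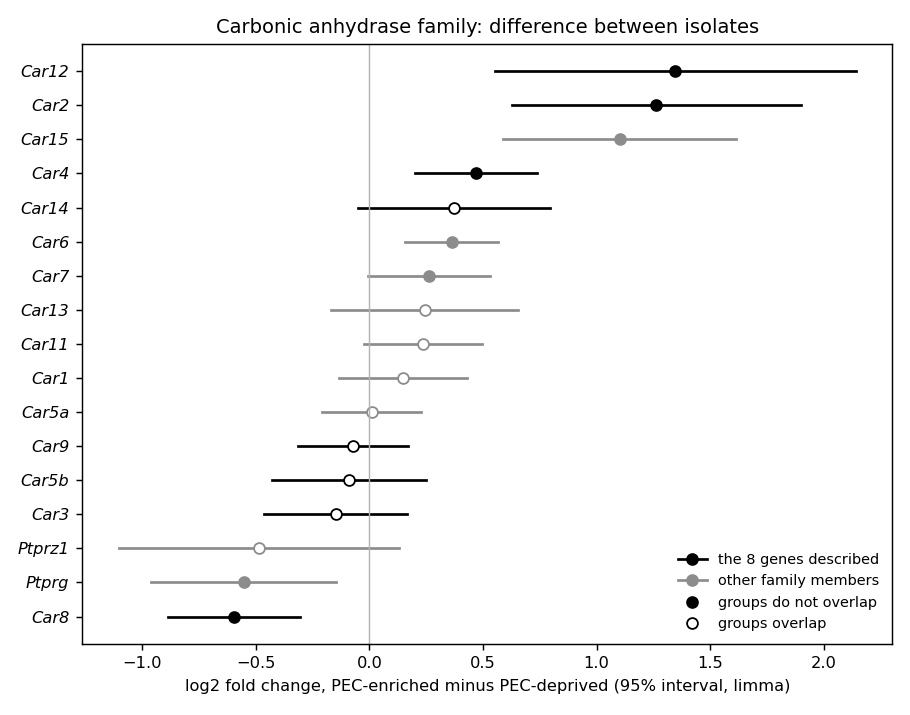
log2 fold changes (x axis, PEC-enriched minus PEC-deprived, with 95% limma intervals) of the 17 measured family members (y axis), black for the 8 genes described and grey for the others; filled points mark genes whose groups did not overlap. Car12, Car2 and Car15 stand above 1, and Car8 lies lowest at -0.60.

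Proteins that carry bicarbonate or protons work beside carbonic anhydrases. The list set beside them also holds Nherf1, a scaffold protein, and Ahcyl1, a regulator of such carriers, which carry neither. Of its 21 measured genes, means were higher for 17 and lower for 4 (median 0.19). In limma 0 of the 21 passed an adjusted p under 0.01, while 10 had an unadjusted p under 0.05, all of them higher, where 7.96% of all genes were higher and 5.65% lower. The regularised test called 4, all higher, where it called 1.41% of all genes higher and 0.234% lower. They were Slc4a1, Slc4a4, Slc4a9 and Slc26a7. These 4 are also in the study's list chosen on these arrays, so this is not independent evidence. Slc16a1, a monocarboxylate and proton carrier, differed by 1.19 on the log2 scale (SE 0.404, adjusted p = 0.352 in limma), and by 0.78 without PEC-enriched replicate 2. Slc4a4, the sodium bicarbonate cotransporter of the proximal tubule's basolateral side, had 10.48, 11.04 and 10.38 in PEC-enriched and 10.29, 8.70 and 9.52 in PEC-deprived replicates 1 to 3. Its fold change of 1.13 (SE 0.362, adjusted p = 0.327 in limma) came with a spread of 1.59 among PEC-deprived arrays, and was 0.73 without PEC-deprived replicate 2. Slc4a9, a transporter of type B intercalated cells, had 0.94 (SE 0.138, adjusted p = 0.152 in limma), and Slc26a7, a chloride and bicarbonate exchanger, 0.79 (SE 0.191, adjusted p = 0.218 in limma). In these last genes too the groups did not overlap. The probesets of Slc4a9 and Slc26a7 lay below the median level, at 41.1% and 22.6% of probesets, and their signal over background is unknown. Groups without overlap numbered 11 in the higher and 0 in the lower direction, where 9.68% of all genes were of the higher and 9% of the lower kind. Nherf1 is among the 11 and among the 10. Of the 21 genes 3 are also among the intercalated cell markers.

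**Figure D3:**
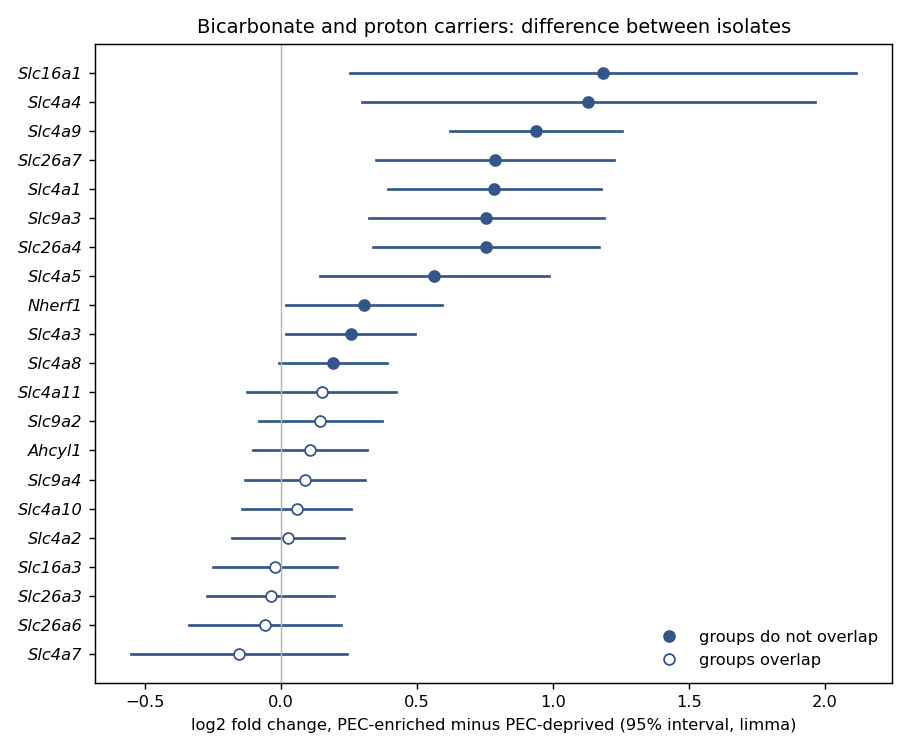
log2 fold changes (x axis, PEC-enriched minus PEC-deprived, with 95% limma intervals) of the 21 measured genes of the bicarbonate and proton carrier list (y axis); filled points mark genes whose groups did not overlap. The 11 genes without overlap all lie on the higher side, with Slc16a1 at 1.19 and Slc4a4 at 1.13 at the top.

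Enzymes that use bicarbonate or generate it with ammonia were compared as well. Of 9 carboxylases and carbamoyl phosphate synthetases, means were higher for 5 and lower for 4 (median 0.16), and 0 passed in limma. Pc, the mitochondrial pyruvate carboxylase, differed by 0.79 with overlapping groups (SE 0.294, adjusted p = 0.39 in limma). Pccb, a subunit of propionyl-CoA carboxylase, had 0.50 without overlap (SE 0.128, adjusted p = 0.235 in limma), as had Mccc2 with 0.43 (SE 0.138, adjusted p = 0.331 in limma) and Pcca with 0.25 (SE 0.106, adjusted p = 0.461 in limma). Of 4 measured genes of ammonia and bicarbonate generation, Pck1 had the largest difference, at 1.07 (SE 0.379, adjusted p = 0.367 in limma), and 0 passed. Slc38a3 stood at 0.31, Glud1 at 0.11 and Adcy10 at -0.01.

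Markers of epithelial cell types differed on the same arrays as Car2, Car12 and Car4. Means of all 8 thick ascending limb markers were higher in PEC-enriched isolates (median log2 fold change 1.75), as were those of all 12 proximal tubule (1.01), all 12 intercalated cell (0.77) and all 11 PEC markers (0.92). In the study's immunostaining, the proteins of the PEC markers Cdh6 and Pax8 were also seen in tubules, so the PEC list is not confined to PECs. Of distal convoluted and connecting tubule markers 5 of 6 were higher in mean (0.65), of principal cell markers 5 of 7 (0.23) and of mesangial and smooth muscle markers 4 of 7 (0.02). In this last list log2 fold changes ran from -0.64 to 0.83, so its median hides differences in both directions. Of its 7 genes 3 had no overlap in the higher and 1 in the lower direction, against 9.68% and 9% of all genes. All 8 thick ascending limb markers and most PEC markers are in the study's own list, which was chosen on these arrays. So are some proximal tubule, intercalated cell, distal convoluted and connecting tubule, and smooth muscle markers. The direction of these genes is not independent evidence. The mean of the thick ascending limb markers relative to all arrays ran from 0.70 to 1.19 in PEC-enriched and from -1.42 to -0.23 in PEC-deprived isolates. For proximal tubule markers these ranges were 0.23 to 0.81 and -1.04 to 0.13, for intercalated cell markers 0.28 to 0.42 and -0.56 to -0.08, and for PEC markers 0.23 to 0.78 and -0.71 to -0.22. In each of these 4 lists PEC-deprived replicate 1 stood highest and replicate 2 lowest of its group. In the distal convoluted and connecting tubule and principal cell lists replicate 1 stood highest too. There replicate 3 was lowest, at -0.67 and -0.18, with replicate 2 at -0.66 and -0.17. The order replicate 1, 3, 2 of the 4 lists also held for 6 of the 8 carbonic anhydrases, Car2, Car4, Car5b, Car9, Car12 and Car14. It occurred in 20.3% of all genes. In Car9 it rests on 5.906 against 5.901 for replicates 1 and 3, and in Car5b on a spread of 0.15. In Car8 that order was turned round, as it was in 14% of all genes. In the PEC-enriched group the lists did not share an order. Replicate 1 stood highest for thick ascending limb and intercalated cell markers and replicate 2 for proximal tubule and PEC markers. Of the carbonic anhydrases, Car2 and Car12 stood highest on PEC-enriched replicate 2 and Car4 on replicate 1. The part of tubule cells and PECs in the Car2, Car12 and Car4 values was not tested. In bulk isolates, fewer cells of a type and less RNA per cell cannot be told apart.

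**Figure D4:**
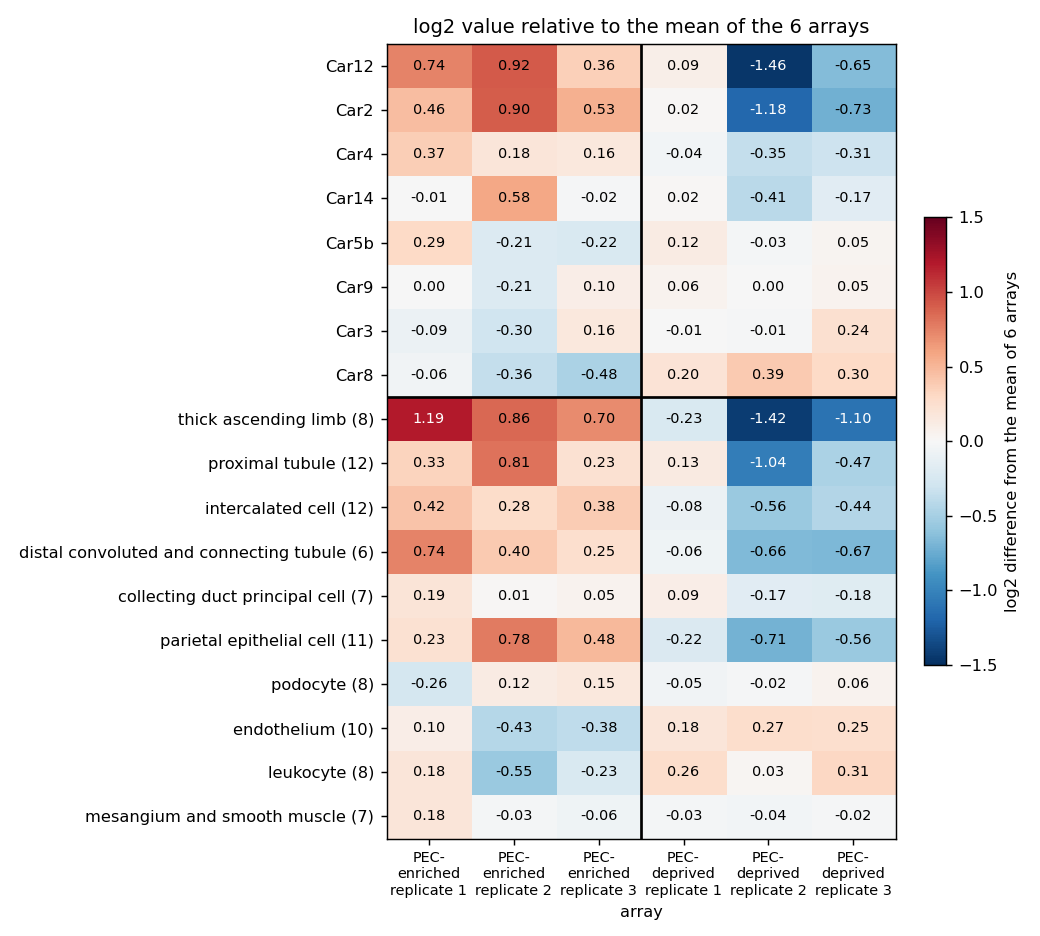
log2 values relative to the mean of the 6 arrays (colour and printed value) for the 8 carbonic anhydrases (upper rows) and the mean over each marker list (lower rows, number of measured genes in brackets), with arrays as columns. Car12 and Car2 are lowest on PEC-deprived replicate 2, as are the thick ascending limb, proximal tubule, intercalated cell and PEC lists, while Car8 and the endothelial list are highest there.

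The genes most like Car2 and Car12 were sought by the root mean square difference of values centred on each gene's own mean over the 6 arrays. This was done for the members that ranged over more than 1 log2 unit, which were Car2 and Car12. Nearest to Car2 were Atp6v0a4, a proton pump subunit of renal epithelium (0.083 log2 units), Anpep, a brush border aminopeptidase (0.0872), and Fam20c, a kinase of the secretory pathway (0.088). Car12 lay nearest to Rida (0.0941), Glyat, which conjugates glycine to acyl groups (0.0984), and Spink1l (0.104). Between Car2 and Car12 themselves the difference was 0.183, and between Car12 and Car8 it was 1.10. With 6 arrays many genes share such a profile, so this is a description of these arrays.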

How the data were processed

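Arrays were processed by the authors with background adjustment, quantile normalization of log-transformed intensities and RMA, a tool that is also in the submitters' processing notes. For the software and the probeset definition, nothing was given in the texts at hand. What the authors deposited is a table of log2 values by probeset and array, from 2.13 to 13.87 (array medians 6.69 to 6.75), and this range is that of the log2 scale RMA gives. Scanner files were not used here. Precision is limited by having 3 arrays a group.

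Of 29215 probesets, 15310 have 1 gene symbol in the 2016 platform annotation, updated through Entrez IDs to RefSeq symbols. PEC-enriched and PEC-deprived arrays were compared with limma 3.58.1 run in R 4.3.3 (lmFit with eBayes, a two-sided test without covariates) over all 29215 probesets, adjusted after Benjamini and Hochberg with a threshold of 0.01. In the study a Bayesian t-test with that adjustment and threshold was used. A regularised test of this kind (prior weight 10, window of 101 probesets, 22 degrees of freedom, which count the prior) was an alternative. The settings of the study's test are not stated. The study reported 334 differing probesets with it, and the regularised test used here called the same number, 334 of 29215. An equal count does not show that the same probesets were called. In the study's list the log2 fold changes of Car2 and Car12 are somewhat smaller than here. Both tests were checked on simulated data with known changes, where the regularised test made many more false calls than its threshold allows and limma did not. The simulation took each probeset's spread from its own arrays, so it cannot settle the error rate of either test on the real arrays. The other alternatives were a replicate block, an intensity trend, array weights, filters, 2 further normalizations, other probeset rules and single arrays left out.

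The genes described and the lists were chosen with earlier results of these data known. All 8 genes were named, and, of each list set beside them, up to 4 genes with the largest absolute fold change, since none passed. Hbb, Car1, Car13 and the inositol trisphosphate receptors were named beside a result they bear on. Some listed genes were not analysed here. No arrays were identical (correlations 0.9816 to 0.9937). The labels do not tie arrays to separate rats, so p-values measure the spread between these samples, which may in part be technical. Figures were drawn with matplotlib 3.10.9.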

Additional observations from a re-analysis of the deposited data

How the results depend on the processing

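Under the alternatives each of the 8 genes kept its direction wherever it was tested, except Car9. Its difference of -0.07 became 0.0146 without PEC-enriched replicate 2 (range without single arrays -0.142 to 0.0146). Several alternatives changed the test or the probesets tested but not the log2 fold change, so they could not turn a direction. The Car5b difference was only -0.000457 without PEC-enriched replicate 3. In the regularised test 2 of the 8 carbonic anhydrases (Car2 and Car12), 4 of the 21 carriers and 239 of all genes passed an adjusted p under 0.01, against 0, 0 and 0 in limma. That test made too many false calls on simulated data, which cannot settle its error rate on the real arrays. In limma without single arrays the count over all genes ran from 0 to 1, the 1 being without PEC-deprived replicate 1. No gene among the 8 passed an adjusted p under 0.01 in another alternative. With all 6 arrays and a threshold of 0.05 limma also called 0 of the 8, while without PEC-deprived replicate 1 the adjusted p of Car2 was 0.0478. With only probesets above the median level, 6 of the 8 genes remained, and their median log2 fold change was 0.42 against 0.15, because Car3 and Car9 drop out. Adjusted p for Car2 ran from 0.0011 to 0.587, for Car12 from 0.00187 to 0.694 and for Car8 from 0.0108 to 0.513 over the alternatives.

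The replicate numbers were not taken as pairs, since whether a rat gave both fractions is not stated. Deviations of arrays with the same number correlated by -0.0287, 0.0519 and 0.1. For arrays with different numbers these correlations ran from -0.135 to 0.0827. With so few arrays a group, such correlations cannot settle whether the arrays were paired. With the replicate block, limma again called 0 of the 8, with Car2 at 1.26 (adjusted p = 0.351), and no call changed.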
